A study of Homo sapiens with 8 samples.

Results

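The nuclear genes for mitochondrial ribosomal proteins were followed in MDA-MB-231 cells exposed to a dibenzothiophene-based compound, with or without UV-A light. Members were the protein-coding rows whose gene name began with MRPL or MRPS and a number: 77 rows among 48162 genes in the expression table of round 1 (20312 of them protein coding), and 77 rows among 58676 genes in that of round 2 (19821 protein coding). Together the tables held 77 member symbols, and 74 gene identifiers were members in both. MRPL45 and MRPS21 carried different identifiers in the 2 tables, MRPL57 went by another name in round 1, and MRPS17 had a second locus in round 1 that was listed at 0 in every library.

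The mitochondrial ribosome translates the few messenger RNAs that are transcribed from mitochondrial DNA, all of which encode subunits of the respiratory chain and the ATP synthase. Its ribosomal RNAs come from the mitochondrial genome, but its proteins are encoded in the nucleus, made in the cytosol and imported. Many of them have a counterpart in bacterial ribosomes, and the rest are particular to mitochondria. The large subunit (mostly MRPL genes) forms peptide bonds and holds the exit tunnel, and the small subunit (mostly MRPS genes) binds and decodes the messenger RNA.

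MDA-MB-231 is an established mesenchymal, triple-negative breast cancer cell line, and RNA was sequenced in 8 libraries after selection on poly-T beads. In round 2, at passage 32 to 34, 1 library came from cells given 10 µM 1-S and UV-A, 1 from 1-S in the dark, 1 from irradiated vehicle cells and 1 from dark vehicle cells. Round 1, at passage 8, held the same arms with 10 µM 1-SO in place of 1-S. The 2 compounds are triphenylphosphonium salts of dibenzothiophene, and 1-SO bears an oxygen on the ring sulphur that 1-S lacks. Cells stood with compound or vehicle for 24 hours, and DMSO was at 1% in the cultures of all 8 libraries, compound and vehicle alike. The irradiated plate was lit for 30 min with UV-A from 8 lamps while the other was wrapped in foil. Compound, round and passage changed together and cannot be told apart, and each compound group was 1 library, so that the spread in the fit of all 8 libraries comes from the vehicle libraries. Nothing in the labels says that the vehicle libraries of a round are more than 1 culture each.

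Libraries held 15816049 to 22564754 reads counted to genes. Of 4 genes typical of this line, VIM lay between 219 and 317 FPKM (fragments normalised to gene length and depth) over the 8 libraries, AXL between 123 and 329, CD44 between 28.3 and 197, and CAV1 between 44.0 and 161. ESR1, CDH1 and PGR stayed at or under 0.14 FPKM, but ERBB2 and EPCAM, which the marker list for this line gives as low or absent, reached 29.2 and 5.57 FPKM. Of 3 genes of other cell types, PTPRC (leukocytes) and PECAM1 (endothelium) stayed at or under 0.411 FPKM, and COL1A1 (fibroblasts) lay between 1.45 and 7.09 FPKM. The share of reads on mitochondrial genes was 0.93% with 1-SO and UV-A and 2.40% to 3.12% in the other 7 libraries. In bulk RNA, fewer cells of a kind and less RNA per cell cannot be told apart.

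Transcripts of the large and small subunits ranged from under 1 to over 100 FPKM, and the same pair led both rounds. Of the 77 rows, 72 in round 2 and 73 in round 1 reached 1 FPKM in at least 2 of the 4 libraries. Among those, the median of the mean levels was 13.8 FPKM in round 2 and 22.1 FPKM in round 1, against 8.56 and 12 FPKM for all protein-coding genes passing the same filter. MRPL14, the counterpart of bacterial L14 at the interface of the subunits, was highest in each table, with a mean of 95.8 FPKM in round 2 and 137 FPKM in round 1. In round 2 it had 88.6 FPKM with 1-S and UV-A and 82.7 FPKM with 1-S in the dark, against 108 FPKM in irradiated vehicle cells and 104 FPKM in dark vehicle cells. In round 1 it had 144 FPKM with 1-SO and UV-A and 156 FPKM with 1-SO in the dark, against 100.4 FPKM in irradiated vehicle cells and 149 FPKM in dark vehicle cells. The 1-S libraries were the lowest of round 2, and the irradiated vehicle library was the lowest of round 1. MRPL14 was followed in both by MRPS10, the counterpart of bacterial S10, with 86.0 and 85.4 FPKM. MRPS34, MRPL18 and MRPL41 completed the upper 5 of round 2 at 53.8, 48.1 and 41.9 FPKM, and MRPL37, MRPL34 and MRPL51 those of round 1 at 67.1, 66.4 and 63.1 FPKM. Across 69 genes at 1 FPKM or more in both rounds, the ranks of the levels had a Spearman correlation of 0.83. These are points across genes that share libraries and are no replicates. Levels were not compared between rounds gene by gene, because the gene lengths used by the 2 tables differed: 66 of 76 genes were longer in round 2, at most 6.93-fold, for MRPS23.

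At the low end, MRPL46, MRPS24, MRPS28, MRPS18C and MRPL38 averaged 0.125 to 0.453 FPKM in round 2, all under the filter. In round 1 the 5 lowest rows were the second MRPS17 locus at 0, MRPL30 at 0.00607 FPKM, MRPL46 at 0.239 FPKM, MRPS24 at 0.753 FPKM and MRPL38 at 1.03 FPKM. MRPL30 had 1 read over the 4 libraries of round 1, but 9.95 to 12.1 FPKM in round 2, so no fold change with 1-SO is given for it. Some of these genes share exons with a neighbour in GENCODE release 29 (GRCh38): MRPL38, MRPS28 and MRPS24 shared 37.5%, 35.8% and 23.2% of their exonic bases with a gene on their strand. MRPL12, the counterpart of the bacterial stalk protein L7/L12, shared 68.2%, the second MRPS17 locus 88.6%, and MRPL53, a mitochondrion-specific protein of the large subunit, shared 45.2% with CCDC142. Neither the treatment of shared bases in the counting nor its use of the strand is stated, so the values of such genes are uncertain.

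**Figure D1:**
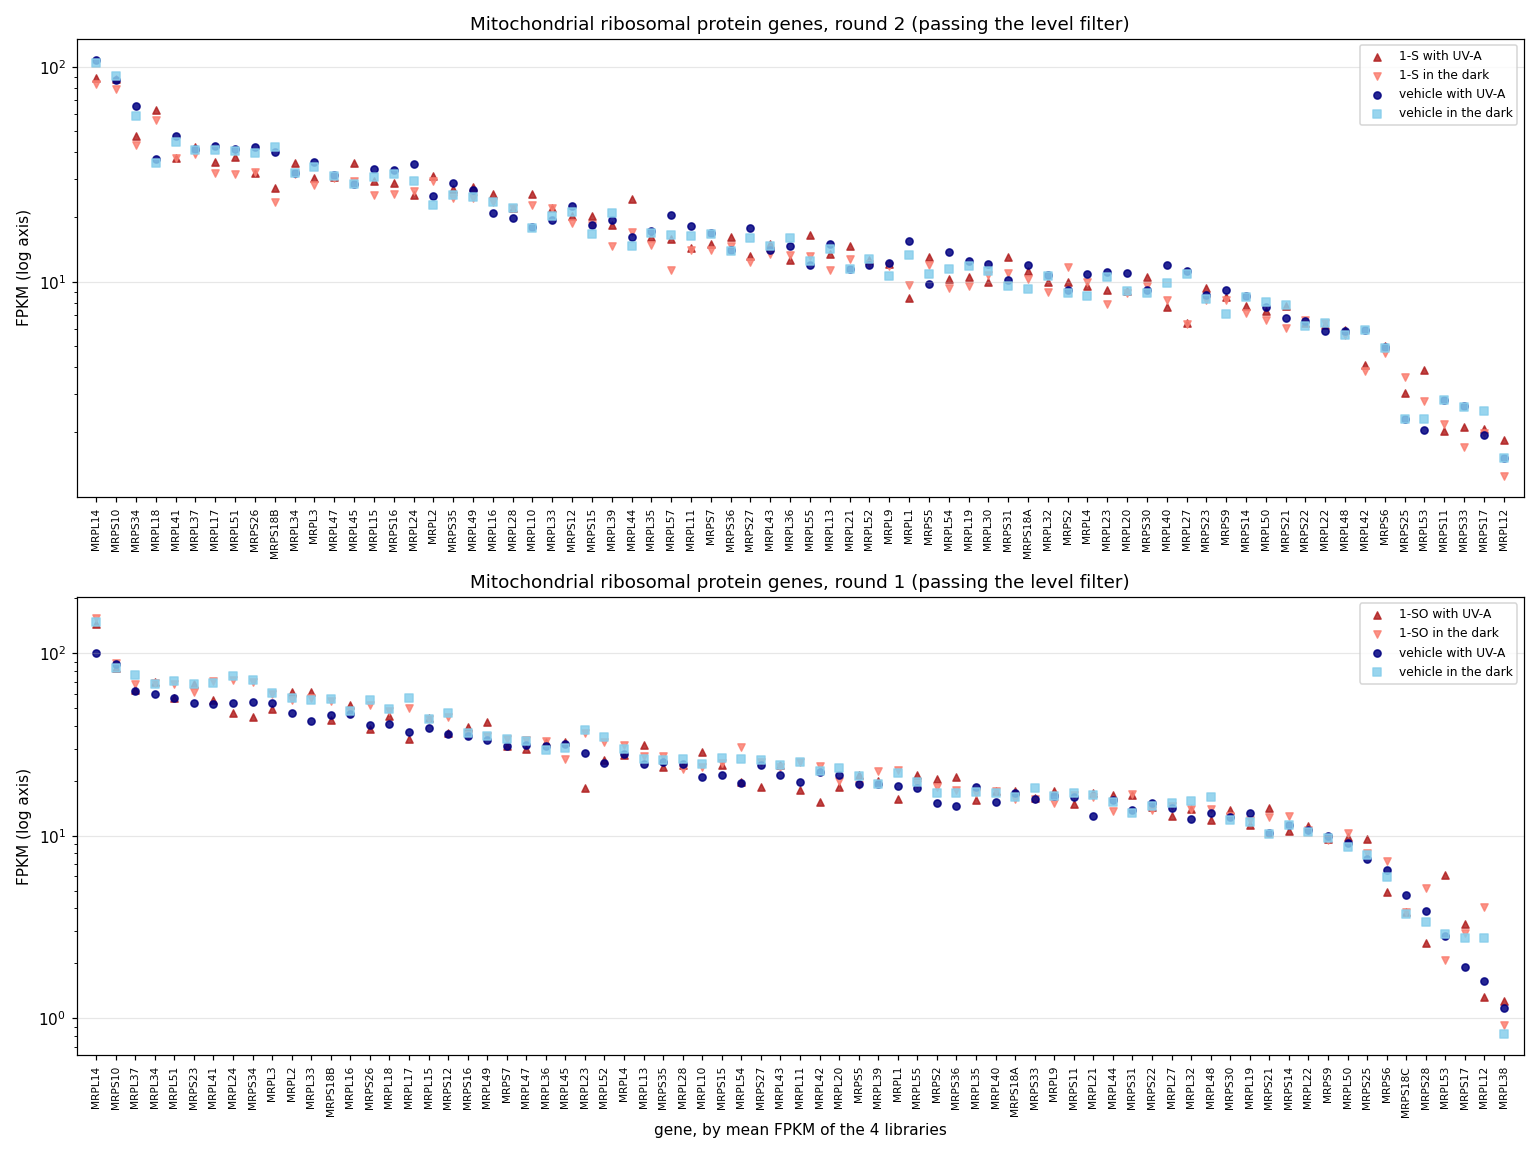
FPKM of each mitochondrial ribosomal protein gene that passed the level filter (x axis, ordered by mean) in each of the 4 libraries of round 2 (upper panel) and round 1 (lower panel), on a log axis. Each symbol is 1 library. MRPL14 and MRPS10 lead both panels. In round 2 both 1-S symbols lie below both vehicle symbols for 34 of 72 genes and above them for 17. Of all genes passing the filter in that round, 36.2% lie below in this way and 43.6% above.

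With 1-S, genes of both subunits fell against vehicle cells of the same round, led by MRPL27, MRPS18B, MRPL1 and MRPL42, while MRPL18 rose. In the fit of the 4 libraries of round 2, which compares both 1-S libraries with both vehicle libraries and takes light into account, 35 of 72 tested genes fell and 5 rose (edgeR quasi-likelihood test, Benjamini-Hochberg adjusted p under 0.05 over 12229 genes). Most of the transcriptome was also called: 34.5% of all genes tested were lower and 26.8% higher with 1-S. The log2 fold change was below 0 for 55 of the 72 genes and for 6663 of all 12229 genes tested. Its median was -0.21 for the 72 genes, -0.07 for all genes and -0.08 for protein-coding genes. DESeq2 called 22 lower and 1 higher, and its share over all genes is not given here. On the FPKM scale, where the median of all genes moves to 0.04, limma called 21 lower and 8 higher, against 3129 lower and 3806 higher among all genes, and the median of these genes was -0.08. Relative to the median of all genes, the shift was -0.14 on the first scale and -0.12 on the second. Marker genes changed in the same fit. Of the 4 genes typical of the line, CD44, CAV1 and AXL fell (-1.14, -1.53 and -1.30 on the log2 scale) and VIM was not called (-0.05). Their summed level was 446 FPKM with 1-S and UV-A and 444 FPKM with 1-S in the dark, against 730.2 FPKM in irradiated and 690.3 FPKM in dark vehicle cells. Of the 3 genes of other cell types, COL1A1 rose (2.08), and PTPRC and PECAM1 were under the filter. The summed level of those 3 was 6.56 FPKM with 1-S and UV-A and 7.23 FPKM with 1-S in the dark, against 1.81 FPKM in irradiated and 1.96 FPKM in dark vehicle cells. The part of these shifts in the changes of the ribosomal protein genes was not tested.

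The large subunit held the deepest fall. MRPL27, the counterpart of bacterial L27, which reaches towards the peptidyl transferase centre, had 6.43 FPKM with 1-S and UV-A and 6.34 FPKM with 1-S in the dark, against 11.2 FPKM in irradiated vehicle cells and 10.8 FPKM in dark vehicle cells. Both 1-S libraries lay below both vehicle libraries (log2 fold change -0.91 ± 0.12, SE, adjusted p = 4.2e-07). MRPL1, whose bacterial counterpart forms the L1 stalk by which deacylated transfer RNA leaves, had 8.42 FPKM with 1-S and UV-A and 9.66 FPKM with 1-S in the dark, against 15.4 FPKM in irradiated vehicle cells and 13.3 FPKM in dark vehicle cells. Again the groups did not overlap (log2 fold change -0.79 ± 0.13, SE, adjusted p = 1.4e-05). MRPL42, a mitochondrion-specific protein, had 4.1 FPKM with 1-S and UV-A and 3.86 FPKM with 1-S in the dark, against 5.94 FPKM in irradiated vehicle cells and 5.96 FPKM in dark vehicle cells, with both 1-S libraries lower (log2 fold change -0.70 ± 0.09, SE, adjusted p = 2e-07). MRPL40 and MRPL57, also mitochondrion-specific, fell by less, with log2 fold changes of -0.58 ± 0.14 and -0.57 ± 0.11 (SE).

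In the small subunit, MRPS18B, one of several mitochondrial relatives of bacterial S18, had 27.2 FPKM with 1-S and UV-A and 23.6 FPKM with 1-S in the dark, against 40.3 FPKM in irradiated vehicle cells and 42.2 FPKM in dark vehicle cells. The 1-S libraries were the 2 lowest (log2 fold change -0.82 ± 0.09, SE, adjusted p = 5.5e-08). MRPS34, a mitochondrion-specific protein whose loss destabilises the small subunit, had 47.4 FPKM with 1-S and UV-A and 43.0 FPKM with 1-S in the dark, against 65.9 FPKM in irradiated vehicle cells and 58.9 FPKM in dark vehicle cells, and the groups did not overlap (log2 fold change -0.58 ± 0.09, SE, adjusted p = 5.1e-06). MRPS33 and MRPS27, both without a bacterial counterpart, changed by -0.59 ± 0.16 and -0.52 ± 0.09 on the log2 scale (SE). MRPS11, the counterpart of bacterial S11 on the platform of the small subunit, changed by -0.54 ± 0.15 (SE). The other 25 genes called lower, 19 of them of the large subunit, had log2 fold changes of -0.48 to -0.21.

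Among the 5 genes that rose, MRPL18 had the largest change. It is the counterpart of bacterial L18, which binds 5S ribosomal RNA, and a cytosolic form of it has been described in heat-shocked human cells. MRPL18 had 63.0 FPKM with 1-S and UV-A and 56.2 FPKM with 1-S in the dark, against 37.3 FPKM in irradiated vehicle cells and 35.8 FPKM in dark vehicle cells. Both 1-S libraries were above both vehicle libraries (log2 fold change 0.58 ± 0.09, SE, adjusted p = 4.8e-06). MRPS25, a mitochondrion-specific protein of the small subunit, had 3.04 FPKM with 1-S and UV-A and 3.61 FPKM with 1-S in the dark, against 2.31 FPKM in irradiated vehicle cells and 2.3 FPKM in dark vehicle cells (log2 fold change 0.40 ± 0.15, SE, adjusted p = 0.02). MRPL10, whose bacterial counterpart anchors the L7/L12 stalk, MRPL44, which carries a ribonuclease III-like domain, and MRPL2, whose bacterial counterpart lies beside the peptidyl transferase centre, rose by 0.32, 0.28 and 0.21 on the log2 scale.

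**Figure D2:**
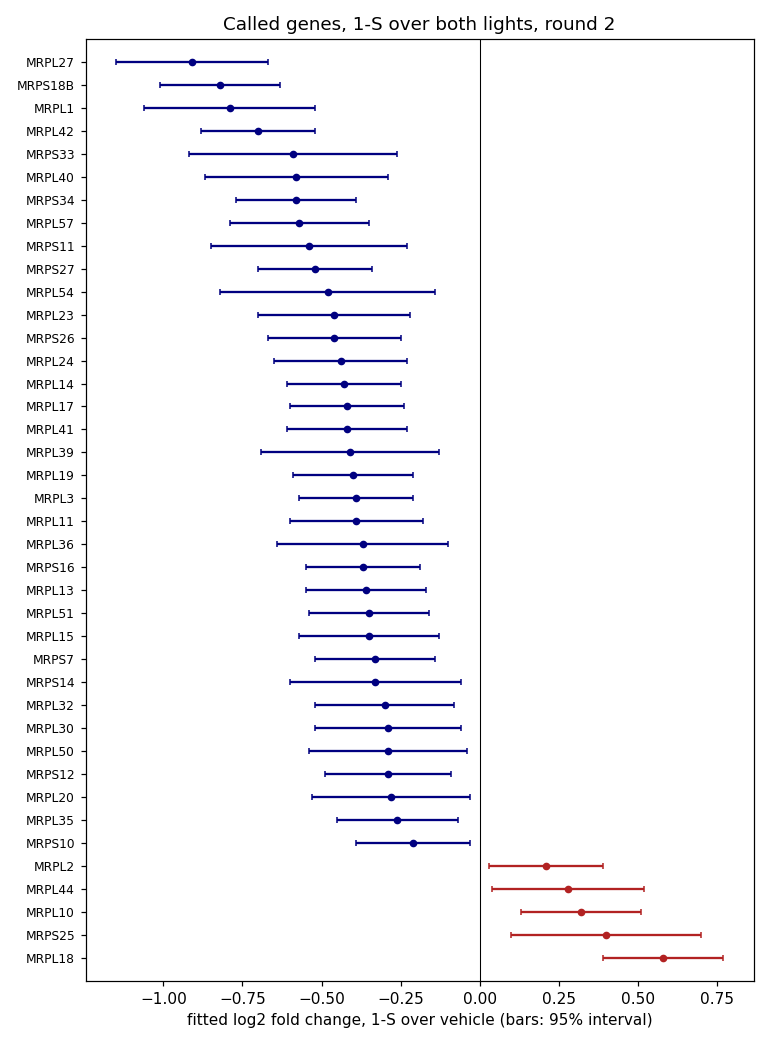
Fitted log2 fold change of 1-S over vehicle in round 2 (x axis, with 95% intervals) for the 40 genes called by edgeR, ordered by value (blue lower, red higher with 1-S). MRPL27 is lowest at -0.91 and MRPL18 highest at 0.58.

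Genes called lower lay in both subunits and in both classes of origin used here. They were 24 of 48 of the large subunit and 11 of 23 of the small subunit, with medians of -0.20 and -0.21. In the same fit of round 2, 34.5% of all genes and 36.9% of protein-coding genes were called lower. The medians were -0.07 for all genes and -0.08 for protein-coding genes. By origin, the genes called lower were 22 of 43 proteins with a bacterial counterpart and 13 of 28 mitochondrion-specific ones, with medians of -0.26 and -0.16. The mitochondrion-specific class includes MRPS18B, though it is a relative of bacterial S18, while MRPS18C was classed with the bacterial counterparts. The difference between these classes was not tested. Both 1-S libraries were below both vehicle libraries for 44 of 72 genes on the scale of the fit and for 34 of 72 as FPKM, where 44.1% and 36.2% of all genes did the same. They were above both for 7 and 17 genes, against 35.7% and 43.6% of all genes. Genes called lower had a median level of 15.6 FPKM, the 5 called higher 21.0 FPKM and those not called 11.5 FPKM. MRPS36, now assigned to the 2-oxoglutarate dehydrogenase complex and not to the ribosome, was not called (log2 fold change 0.02 ± 0.13, SE).

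Promoter windows were examined for words that these genes may share. RefSeq windows (GRCh38.p14, 250 bases before to 50 after the start, the first listed window per gene) were found for 68 of the 77 symbols. The ETS core CCGGAAG, searched on both strands, was in 28 of them (41.2%), against 10.7% of 27305 promoters and 20.4% of the 8647 promoters of genes tested in round 2. The YY1 word AAGATGGCG was in 13 (19.1%), against 1.85% and 4.2%, and the NRF1 word GCGCANGCG in 13 (19.1%), against 8.05% and 15.6%. The word TGACGTCA was in 0 of these windows, against 1.98% of all promoters and 3.49% of those of tested genes. The word TATAAA was in 2 (2.94%), against 12% and 4.98%. The ETS core was in 13 of 31 windows of genes called lower with 1-S and in 13 of 33 of the other tested genes, and any of the first 3 words in 21 and 19. The 250 bases before the start are given for MRPL27, the gene with the largest fall, for MRPS34, which held 3 ETS cores, and for MRPL18, the gene with the largest rise. Capitals mark the ETS core on either strand, and the MRPL18 stretch holds none of the first 3 words.
MRPL27 (GRCh38.p14, chr17:50373185-50373434, minus strand): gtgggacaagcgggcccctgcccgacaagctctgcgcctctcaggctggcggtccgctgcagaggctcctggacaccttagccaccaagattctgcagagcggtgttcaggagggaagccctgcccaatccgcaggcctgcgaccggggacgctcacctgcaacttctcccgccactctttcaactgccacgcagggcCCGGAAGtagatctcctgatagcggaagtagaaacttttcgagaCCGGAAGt
MRPS34 (GRCh38.p14, chr16:1773135-1773384, minus strand): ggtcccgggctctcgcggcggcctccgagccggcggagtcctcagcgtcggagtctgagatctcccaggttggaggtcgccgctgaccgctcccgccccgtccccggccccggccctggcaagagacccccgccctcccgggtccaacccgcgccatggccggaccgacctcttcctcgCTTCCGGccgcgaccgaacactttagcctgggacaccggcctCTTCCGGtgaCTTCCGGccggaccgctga
MRPL18 (GRCh38.p14, chr6:159789562-159789811, plus strand): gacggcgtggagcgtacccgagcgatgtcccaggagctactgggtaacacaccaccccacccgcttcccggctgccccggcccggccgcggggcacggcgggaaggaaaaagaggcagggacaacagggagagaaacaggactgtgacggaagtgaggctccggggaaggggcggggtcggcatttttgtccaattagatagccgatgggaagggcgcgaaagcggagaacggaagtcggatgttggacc

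The 8-library fit, which has 1 residual degree of freedom and assumes 1 response of vehicle cells to light for both rounds, gave the effect of 1-S in each light condition. In the dark, 13 of 73 genes fell and 0 rose, where 17.7% of 12696 genes were lower and 13.0% higher. The median was -0.31 for these genes and -0.08 for all genes, and the ratio of the 2 libraries of round 2 alone gave a median of -0.29. On the FPKM scale the median of all genes was 0.05 and that of these genes -0.15. Of all genes called, the share that was higher was 42.3% on the count scale and 57.5% on the FPKM scale. The largest called falls were those of MRPS18B (log2 fold change -1.05 ± 0.20, SE, adjusted p = 0.0006) and MRPL27 (log2 fold change -0.95 ± 0.23, SE, adjusted p = 0.004). MRPL57, MRPS33, MRPL42, MRPS34, MRPL1, MRPL23, MRPL17 and MRPL14 followed, from -0.83 to -0.64, and then MRPS27, MRPL51 and MRPL13. DESeq2 called 2 genes. MRPS28, under the filter in round 2, had a lower value that was not called (-1.83). The 3 highest values, not called, were those of MRPS18C, MRPS25 and MRPL18 (0.82, 0.48 and 0.42). Without the dark vehicle library of round 2 the median was -0.49, and the values of MRPS34, MRPL51, MRPL17, MRPL1, MRPL57, MRPL14 and MRPL23 grew by more than 1.5 times, to between -1.34 and -0.90.

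Under UV-A, fewer genes passed the test with 1-S. MRPL18 rose (log2 fold change 0.74 ± 0.19, SE, adjusted p = 0.0078), and MRPL27 (log2 fold change -0.87 ± 0.23, SE, adjusted p = 0.0078), MRPL1 (-0.86), MRPL42 (-0.63) and MRPS18B (-0.61) fell, which makes 4 lower and 1 higher of 73, against 15.2% and 11.8% of all genes. MRPS18C and MRPL53 had higher values, 1.01 and 0.79, that were not called. The fitted median was -0.13, against -0.05 for all genes, and -0.21 from the ratio of the irradiated libraries of round 2. It was 0.15 without the irradiated vehicle library of round 2, where MRPL1 stood at -0.47 and MRPS18B at -0.38. DESeq2 called 0 genes. Light itself, in cells holding 1-S, gave 0 calls by edgeR, DESeq2 and limma, with a background of 0% called. An unadjusted edgeR p under 0.05 was found for 1 gene of the set, against 258 of 12696 genes tested. The lowest fitted values were those of MRPS25, MRPS2 and MRPL1 (-0.22, -0.20 and -0.17) and the highest those of MRPS28, MRPL38 and MRPL12 (1.05, 0.61 and 0.58). Values were above 0 for 62 of 73, against 7345 of 12696 genes tested, with a median of 0.15 against 0.04 for all genes. The interaction of light and 1-S was called for 0 genes by edgeR and DESeq2, and edgeR called 0% of all genes. This interaction had 0 of these genes at an unadjusted edgeR p under 0.05, against 252 of 12696 genes tested. Its lowest values were those of MRPL30, MRPS25 and MRPL1 (-0.24, -0.17 and -0.14) and its highest those of MRPS28, MRPL12 and MRPL38 (1.10, 0.99 and 0.73). The difference between the dark and irradiated counts is therefore not shown to be an effect of light. The interaction had a median 95% half-width of 0.59 on the log2 scale.

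**Figure D3:**
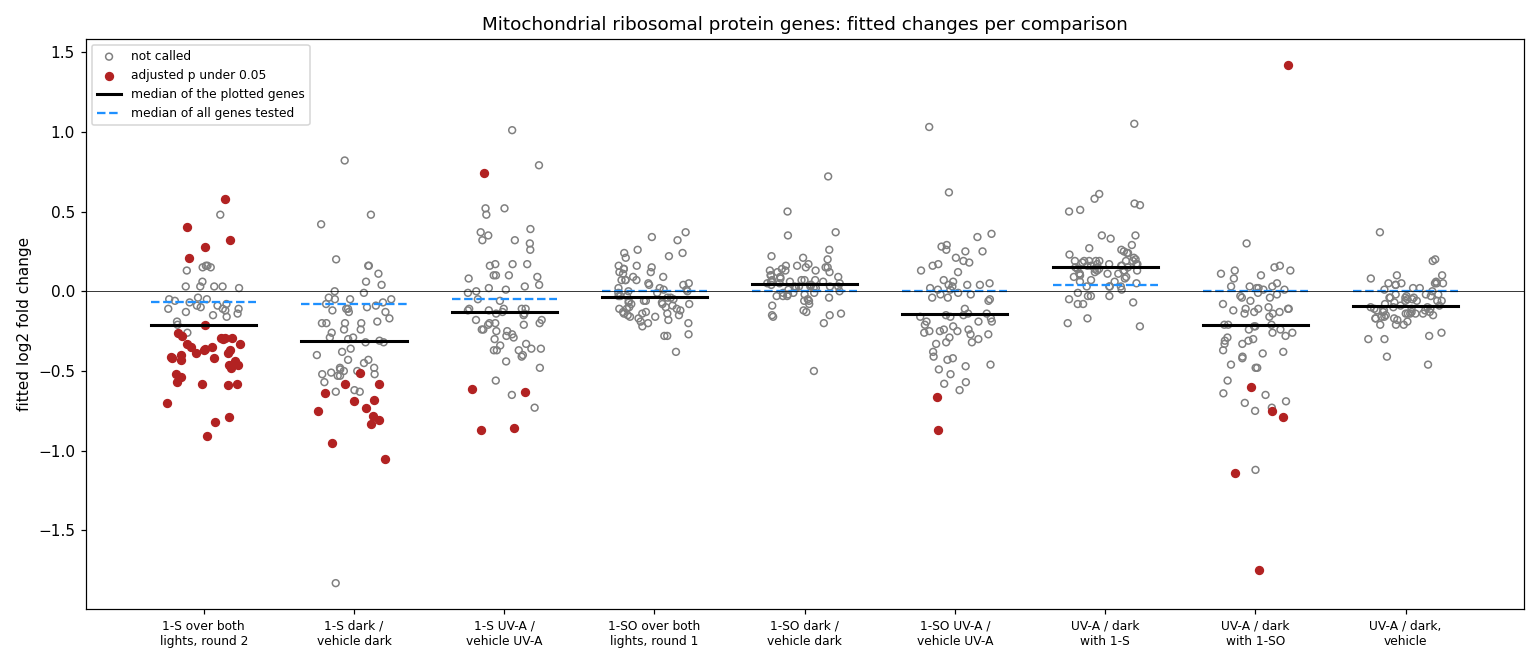
Fitted log2 fold change (y axis) of each tested gene in 9 comparisons (x axis). Red points passed the adjusted threshold, grey circles did not, the black line is the median of the points and the blue dashed line that of all genes tested, and MRPL30 is left out of comparisons with 1-SO and of UV-A in vehicle cells. The black line lies furthest below the blue one for 1-S in the dark and UV-A with 1-SO, and above it for UV-A with 1-S and 1-SO in the dark.

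With 1-SO in the dark no gene of the set passed the test. edgeR and DESeq2 called 0 of 73, and edgeR called 0% of all genes. An unadjusted edgeR p under 0.05 was found for 0 of these genes, against 23 of 12696 genes tested. The median was 0.05, against 0.00 for all genes, and -0.04 from the round 1 libraries alone. The lowest values were those of MRPL53, MRPL28 and MRPS5 (-0.50, -0.20 and -0.16) and the highest those of MRPL12, MRPS28 and MRPL54 (0.72, 0.50 and 0.37). The 95% interval was ± 0.94 for MRPL53 and ± 1.03 for MRPL12, which both share exonic bases on their strand. The half-widths of the 95% intervals had a median of 0.45 over 72 genes, without MRPL30. A change smaller than its interval could not be told from 0, and a larger one could still miss the adjusted threshold. The fit of the 4 libraries of round 1, with light taken into account, likewise gave 0 calls of 74 and a median of -0.03, and DESeq2 and limma called none. There 0 of the 74 had an unadjusted edgeR p under 0.05, against 679 of 12463 genes tested. MRPL23, MRPL42 and MRPL20 were lowest there at -0.38, -0.28 and -0.28, and MRPS17, MRPS21 and MRPL53 highest at 0.37, 0.34 and 0.32. Both 1-SO libraries were below both vehicle libraries for 7 of 74 genes and above them for 9, against 11.1% and 9.83% of all genes. As FPKM these counts were 5 and 14, against 8.82% and 11.7% of all genes.

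With 1-SO and UV-A, 2 genes of the large subunit were lower than in irradiated vehicle cells. MRPL23, whose bacterial counterpart lies at the exit of the polypeptide tunnel, had 18.3 FPKM with 1-SO and UV-A and 36.7 FPKM with 1-SO in the dark, against 28.3 FPKM in irradiated vehicle cells and 37.9 FPKM in dark vehicle cells. The irradiated 1-SO library was the lowest of the 4 (log2 fold change -0.87 ± 0.25, SE, adjusted p = 0.032). MRPL42 had 15.3 FPKM with 1-SO and UV-A and 24.1 FPKM with 1-SO in the dark, against 22.3 FPKM in irradiated vehicle cells and 22.7 FPKM in dark vehicle cells, again lowest with 1-SO and UV-A (log2 fold change -0.66 ± 0.19, SE, adjusted p = 0.03). The ratios within round 1 were -0.71 for MRPL23 and -0.62 for MRPL42, and the value of MRPL23 was -1.31 without the irradiated vehicle library of round 1. The calls were 2 of 73 lower and 0 higher, against 6.09% and 3.78% of all genes, and DESeq2 called 0. The next lowest value, of MRPL12 (-0.62), and the highest, of MRPL53, MRPS17 and MRPS36 (1.03, 0.62 and 0.36), were not called. The median was -0.14, against 0.00 for all genes, but -0.05 from the irradiated libraries of round 1 alone and -0.33 without the irradiated vehicle library of that round. The irradiated 1-SO library was also the one with 0.93% mitochondrial reads, and the part of that in these values was not tested.

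Within cells holding 1-SO, 6 of these genes differed between UV-A and dark. MRPL23 (log2 fold change -1.14 ± 0.26, SE, adjusted p = 0.0069), MRPL42 (log2 fold change -0.79 ± 0.20, SE, adjusted p = 0.012) and MRPL12 (log2 fold change -1.75 ± 0.56, SE, adjusted p = 0.045) of the large subunit fell, as did MRPS34 (-0.75) and MRPS27 (-0.60) of the small subunit, while MRPL53 rose (log2 fold change 1.42 ± 0.45, SE, adjusted p = 0.043). The next highest values, of MRPL38 and MRPL44 (0.30 and 0.16), were not called. MRPL12 rested on 30 and 74 reads with 1-SO in UV-A and dark, against 26 and 53 reads in irradiated and dark vehicle cells, and MRPL53 on 157 and 43 reads, against 52 and 63 reads. MRPS34 had 44.8 FPKM with 1-SO and UV-A and 69.2 FPKM with 1-SO in the dark, against 53.9 FPKM in irradiated vehicle cells and 71.2 FPKM in dark vehicle cells, so the irradiated vehicle library was also below the dark one. The 5 lower and 1 higher calls of 73 stand beside 8.44% and 4.98% of all genes, and DESeq2 called 0. The median was -0.21, against 0.00 for all genes, and on the FPKM scale -0.08 against 0.11. The interaction of light and 1-SO asks whether light did more with the compound than with vehicle. edgeR and DESeq2 called it for 0 of 73 genes, and edgeR called 2.20% of all genes lower and 1.09% higher. limma on the FPKM scale called 1, against 229 higher and 202 lower among all genes. This interaction had 6 of these genes at an unadjusted edgeR p under 0.05, against 2084 of 12696 genes tested. Its lowest values were those of MRPL12, MRPS28 and MRPL23 (-1.34, -1.06 and -0.95) and its highest those of MRPL53, MRPS17 and MRPL38 (1.54, 0.49 and 0.41).

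In vehicle cells the set leaned lower with UV-A in round 1 and higher in round 2. In round 1 the irradiated library was below the dark one for 64 of 72 genes, with a median log2 ratio of -0.22 (range -0.84 to 0.40), where 50.8% of all genes were below 0 and their median was -0.01. In round 2 the irradiated library was above the dark one for 55 of 72 genes, with a median of 0.08 (range -0.62 to 0.55), where 47.2% of all genes were below 0 and their median was 0.01. The summed FPKM of the 77 rows was 1942 in irradiated and 2271 in dark vehicle cells of round 1, and 1468 and 1412 in round 2. Over both rounds edgeR, DESeq2 and limma called 0 of 73 genes, and edgeR called 0% of all genes. An unadjusted edgeR p under 0.05 was found for 0 of the 73, against 323 of 12696 genes tested. The lowest values over both rounds were those of MRPS17, MRPL12 and MRPL52 (-0.46, -0.41 and -0.30) and the highest those of MRPS18C, MRPS18A and MRPS9 (0.37, 0.20 and 0.19).

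In round 1 the irradiated libraries were low for many of these genes with and without 1-SO. Both irradiated libraries were below both dark ones for 42 of 74 genes and above them for 1, against 31.2% and 29.2% of all genes, and as FPKM for 31 and 6, against 22.3% and 39.6%. In round 2 both irradiated libraries were below both dark ones for 0 of 72 genes and above them for 15, against 4.14% and 7.24% of all genes, and as FPKM for 1 and 12, against 5.75% and 5.47%. In round 1 MRPL17, the counterpart of bacterial L17, had 33.9 FPKM with 1-SO and UV-A and 50.0 FPKM with 1-SO in the dark, against 37.0 FPKM in irradiated vehicle cells and 56.7 FPKM in dark vehicle cells, with both irradiated libraries below both dark ones. The difference between rounds has 1 pair of libraries on each side and was not tested.

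**Figure D4:**
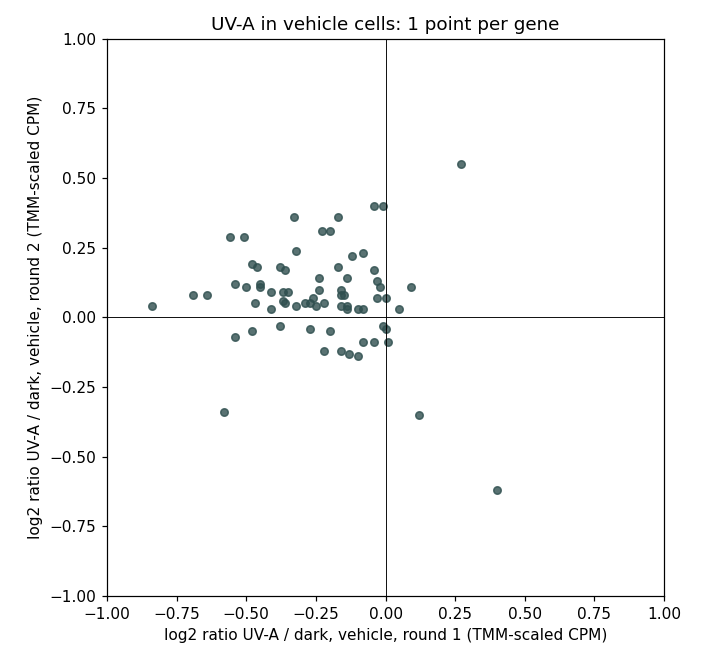
Log2 ratio of irradiated over dark vehicle cells for each gene in round 1 (x axis) and round 2 (y axis), on TMM-scaled CPM, 1 point per gene, without MRPL30. Most points lie left of 0 on the x axis and above 0 on the y axis, with medians of -0.22 and 0.08.

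The compounds were set against each other at the same dose and time, through the vehicle libraries of their own rounds, in 2 comparisons. In the dark, 6 of 73 genes were higher with 1-SO than with 1-S and 0 lower, against 9.59% and 6.80% of all genes. MRPS18B differed most (log2 fold change 1.07 ± 0.25, SE, adjusted p = 0.0067), with a fitted change over vehicle of 0.02 for 1-SO and -1.05 for 1-S. In round 1 it had 43.3 FPKM with 1-SO and UV-A and 55.1 FPKM with 1-SO in the dark, against 45.7 FPKM in irradiated vehicle cells and 56.5 FPKM in dark vehicle cells, where both dark libraries were above both irradiated ones. MRPL57, MRPL27, MRPL42, MRPL14 and MRPS34 differed by 0.96, 0.93, 0.87, 0.85 and 0.84, and all 6 were at -0.02 to 0.21 with 1-SO. The lowest values, of MRPS18C, MRPL53 and MRPS25 (-0.76, -0.67 and -0.42), were not called. The median difference was 0.37, against 0.08 for all genes, and 0.22 from the ratios within rounds, and DESeq2 called 0. The values of MRPS34, MRPL57 and MRPL14 were 0.51, 0.62 and 0.49 when an irradiated vehicle library was left out. Under UV-A edgeR, DESeq2 and limma called 0 of 73, and edgeR called 1.09% of all genes higher and 1.48% lower. An unadjusted edgeR p under 0.05 was found for 2 of the 73, against 1880 of 12696 genes tested. The lowest values there were those of MRPS18C, MRPL12 and MRPL18 (-1.44, -0.99 and -0.79) and the highest those of MRPL40, MRPS17 and MRPL27 (0.63, 0.59 and 0.58). The median difference was -0.03, and the 95% intervals had a median half-width of 0.59 on the log2 scale, so the lack of calls does not show that the compounds act alike under UV-A, and the differences in the dark and under UV-A were not tested against each other. Because each compound was given in 1 round, the difference between compounds and that between rounds or passages cannot be told apart.

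**Figure D5:**
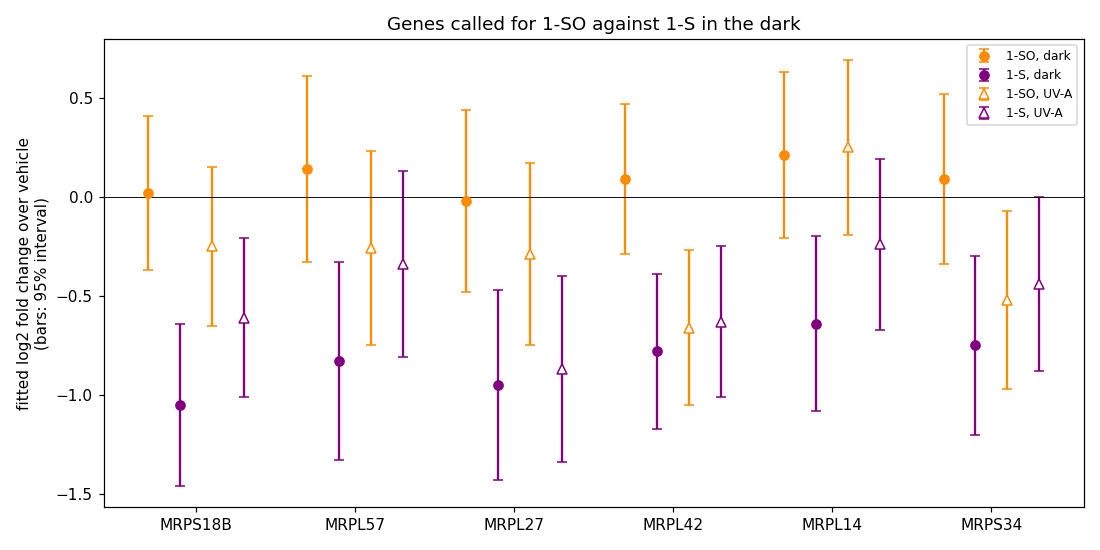
Fitted log2 fold change over vehicle (y axis, bars are 95% intervals) of the 6 genes called for 1-SO against 1-S in the dark (x axis), for 1-SO (orange) and 1-S (purple) in the dark (filled circles) and under UV-A (open triangles). In the dark the 1-SO values lie near 0 and the 1-S values between -1.05 and -0.64.

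Among other nuclear genes of mitochondrial translation, lower calls outnumbered higher ones with 1-S, as they also did among all genes tested. Of the 6 mitoribosomal proteins whose symbols do not begin with MRP, 3 were lower and 0 higher over both light conditions of round 2, with a median of -0.26. The lowest was PTCD3, a pentatricopeptide protein of the small subunit, at 10.2 FPKM with 1-S and UV-A and 9.24 FPKM with 1-S in the dark, against 14.9 and 14.5 FPKM in irradiated and dark vehicle cells (log2 fold change -0.72 ± 0.09, SE, adjusted p = 1.4e-07). GADD45GIP1, of the large subunit, followed (log2 fold change -0.50 ± 0.09, SE, adjusted p = 2.3e-05). Of 24 assembly factors, 10 were lower, led by MTERF3 (log2 fold change -0.82 ± 0.13, SE, adjusted p = 8.2e-06) and RBFA (-0.78), and 1 was higher, NSUN4, an RNA methyltransferase that acts on mitochondrial ribosomal RNA (log2 fold change 0.65 ± 0.11, SE, adjusted p = 1.7e-05). Of 14 translation factors, 5 were lower, among them PDF and the elongation factor GFM1 (log2 fold changes -0.87 and -0.54), and 3 higher, among them MTRF1 and MTRF1L, of the family of release factors (0.60 and 0.51). MT-RNR2, the ribosomal RNA of the large subunit, was higher (log2 fold change 0.77 ± 0.11, SE, adjusted p = 1.8e-06), in libraries selected on poly-T beads. MT-RNR1, that of the small subunit, was called lower (log2 fold change -0.32 ± 0.14, SE, adjusted p = 0.041), but its groups overlapped. It had 1569 FPKM with 1-S and UV-A and 1632 FPKM with 1-S in the dark, against 2469 FPKM in irradiated and 1377 FPKM in dark vehicle cells. In the dark, MT-RNR1 was therefore higher with 1-S than with vehicle. The counts of calls in these lists stand beside 34.5% lower and 26.8% higher among all genes.

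The messenger RNAs that this ribosome translates were lower with 1-S and, under UV-A, with 1-SO. In the 4-library fits, 11 of the 13 mitochondrially encoded mRNAs were lower with 1-S (median -0.64, with 34.5% of all genes lower) and 0 with 1-SO (median -0.81, with 0% of all genes). In the 8-library fit, 6 were lower with 1-S under UV-A (median -0.77) and 4 with 1-S in the dark (median -0.51), where 15.2% and 17.7% of all genes were lower. With 1-SO in the same fit, 12 were lower under UV-A (median -1.71) and 0 in the dark (median 0.21), where 6.09% and 0% of all genes were lower. The nuclear MRPL and MRPS genes had medians of -0.13 and -0.31 with 1-S, and -0.14 and 0.05 with 1-SO, under UV-A and in the dark. The difference between the 2 lists was not tested. In the authors' deposited tables of 9 comparisons, 0 of these MRPL and MRPS genes had an adjusted p under 0.05. Calls were few among all genes there too. Against vehicle they were 603 higher and 247 lower of 58676 for 1-S in the dark, and 574 and 312 under UV-A. With 1-SO they were 0 of 23243 in the dark, and 25 higher and 37 lower of 23926 under UV-A. The smallest adjusted p of one of them in the authors' deposited tables was 0.0701, for 1-S against vehicle in the dark.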

How the data were processed

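The authors counted reads per gene and deposited whole-number counts with FPKM (fragments normalised to gene length and depth) for each round, per the file headers. STAR 2.5, HTSeq 0.6.1 and edgeR 3.16.5 are named in the submitters' processing notes, with hg19 and hg38; round 1 carries GRCh37 coordinates and round 2 GRCh38. The authors' adjusted p-values come from their deposited comparison tables. Members, roles, gene lists and tests were chosen with earlier results of these data known. Genes at 1 FPKM or more in 2 libraries were fitted with edgeR 4.0.16 (quasi-likelihood test, TMM scaling within each round, Benjamini-Hochberg adjustment over all genes tested, calls at 0.05). The 8-library fit has terms for round, the light response of vehicle cells and each of 4 compound groups, and 1 residual degree of freedom. Each 4-library fit has compound and light, also with 1 residual degree of freedom, so a response to light that differs with compound counts as spread. The spread of a gene is mostly borrowed from other genes. Round numbers pair the vehicle libraries, since the labels give the rounds as separate batches, and round is therefore a term.

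Log2 ratios of 2 libraries used CPM with 0.5 reads added, and the authors' FPKM values entered log2(FPKM + 1) for limma 3.58.1, and DESeq2 1.42.0 was the other tool. A fold change on the log2(FPKM + 1) scale understates changes of low genes. The biological coefficient of variation was 12.1% in the 8-library fit, 14.8% in round 1 and 7.15% in round 2. The 8-library fit was tested on simulated data for 1-SO and UV-A over 12696 genes, where it recovered 7 of 100 changes of 0.5 and 69 of 100 changes of 1 (log2) with 2 false calls. The simulated counts had the trend of spread fitted to these data, with no spread particular to a gene and no response to light. The number of false calls in the real data is therefore not measured by it. p-values rest on a spread mostly borrowed from other genes, and do not measure the spread between replicate cultures of a compound. The text names up to 10 called genes in each direction by fitted fold change, or the 3 highest and 3 lowest values where fewer than 3 were called, and the 5 highest and lowest levels of each round. MRPL30 and the second MRPS17 locus, with at most 3 reads in every library of round 1, have no fold change there. Not used were 78 per-sample columns of the deposited tables. Promoters are from RefSeq (GRCh38.p14). The NRF1 and YY1 words were each shortened by 1 letter after a first search had been seen, which raised the number of NRF1 matches. Scripts ran in R 4.3.3 and Python 3.11.15 with pandas 2.3.3. Alternatives were median-of-ratios scaling, DESeq2, limma on log2(FPKM + 1) and log2(FPKM + 0.1), no filter, no round term, a gene-length correction and leaving out each vehicle library. Leaving out genes that share over 50% of their exonic bases was chosen after seeing the data.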

Additional observations from a re-analysis of the deposited data

Results flagged for a closer look

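The response of the set to UV-A in vehicle cells had opposite signs in the rounds, with a median log2 ratio of irradiated over dark cells of -0.22 in round 1 and 0.08 in round 2. Each round has 1 pair of vehicle libraries, and the difference between the rounds was not tested.

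The effects of the 2 compounds over vehicle differed in the dark for 6 genes by the test of the difference itself (edgeR quasi-likelihood test, adjusted p under 0.05). The difference, 1-SO minus 1-S on the log2 scale, was 1.07 for MRPS18B, 0.96 for MRPL57, 0.93 for MRPL27, 0.87 for MRPL42, 0.85 for MRPL14 and 0.84 for MRPS34. Each effect rests on 1 library of a compound, and the ratios within rounds gave differences of 0.90, 0.63, 0.82, 0.81, 0.50 and 0.51 for the same genes. Round and passage differ in the same way as the compounds.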

How the results depend on the processing

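With DESeq2 the called genes numbered 23 for 1-S in the round 2 fit (edgeR 40), 2 for 1-S in the dark (edgeR 13), and 0 for 1-S under UV-A, 1-SO under UV-A, UV-A with 1-SO, and 1-SO against 1-S in the dark. On log2(FPKM + 1) they numbered 7 for 1-S in the dark, 3 for 1-SO against 1-S in the dark and 1 for the interaction of UV-A with 1-SO. Over all genes, limma on that scale called 1947 higher and 1439 lower, 753 higher and 1014 lower, and 229 higher and 202 lower, in the same order. On log2(FPKM + 0.1) they numbered 6 for 1-S in the dark, 1 for 1-SO against 1-S in the dark and 3 for UV-A with 1-SO. The shares of all genes called by DESeq2 and on log2(FPKM + 0.1) are not given here. Whether these counts fell for the set in particular or for all genes is therefore not shown. Without the replicate block, that is without the term for round, 0 genes were called in each 8-library comparison; the cause of these shifts was not tested. The round 2 count was 40 with median-of-ratios scaling, 35 without the filter, 29 and 28 on the FPKM scales. It was also 40 without the genes that share over 50% of their exonic bases, a choice made after seeing the data. Those genes were MRPL12, which was not called, and the second MRPS17 locus, which was not tested. Neither was among the 40, so leaving them out is no check of that count. No value changed direction while called.

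Leaving out each vehicle library in turn, which leaves no residual degree of freedom, gave medians of -0.04 to 0.28 for 1-SO in the dark, -0.33 to -0.05 for 1-SO under UV-A, -0.49 to -0.28 for 1-S in the dark and -0.25 to 0.15 for 1-S under UV-A. They were -0.22 to -0.21 for UV-A with 1-SO, 0.12 to 0.15 with 1-S and -0.22 to 0.08 in vehicle cells. The interactions gave -0.32 to -0.01 with 1-SO and 0.09 to 0.40 with 1-S, and 1-SO against 1-S 0.21 to 0.47 in the dark and -0.16 to 0.18 under UV-A. Of 72 calls of a gene in a comparison, 26 passed with DESeq2, 71 with median-of-ratios scaling, 64 without the filter and 43 on log2(FPKM + 1).

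With 1 library per compound and light, 1 residual degree of freedom and 1 round per compound, changes of 0.5 on the log2 scale were mostly out of reach of the 8-library fit. Genes with few reads, such as MRPL12 and MRPL53, had intervals of about 1 on the log2 scale.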
